A study of Mus musculus with 18 samples.

Results

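The genes described here encode the core equipment of the lysosome. They are 50 mouse genes chosen by symbol for what their products do: 28 hydrolases and lumenal proteins, 8 membrane proteins and 14 subunits of the vacuolar proton pump (V-ATPase). The rule uses no measured value, although earlier results of these data were known when it was written. All 50 were found among the 56893 features of the Torin count table and the 56691 features of the estradiol count table.

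Polyadenylated RNA was sequenced from organoids, small epithelial structures grown in culture from mammary glands of wild-type, nulliparous C57BL/6 mice. In the Torin experiment (mice of about 15 weeks, 18 days of culture in Matrigel droplets), organoids received Torin at 100 nM in the arms D6 and D12, each set against DMSO of the same arm. In the estradiol experiment (mice of about 24 weeks, 12 days of culture), organoids received estradiol at 10 nM for 11 days, set against diluted 96% ethanol. The sample labels give these 11 days, whereas the column names of the deposited estradiol tables carry the tag J1, whose meaning is not stated. Each of the 6 groups had 3 libraries, and all organoids were grown in EpiCult-B medium, with 5% FBS in the first 24 h. The sample titles give 6 and 12 days of treatment for D6 and D12, whereas the series text gives 12 and 6 days, and a batch tag separates the same arms. Length of treatment, its start in culture and batch therefore cannot be told apart between the arms. What separates replicates is not stated, so p-values measure the spread between these libraries, which may be technical.

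Lysosomes degrade protein, glycans, lipids and nucleic acids with hydrolases that work in an acidic lumen. The V-ATPase pumps protons into that lumen: its V1 sector hydrolyses ATP in the cytosol, and its V0 sector carries the protons across the membrane. Torin 1 inhibits the kinase mTOR, which, when active at the lysosomal surface, keeps the transcription factors TFEB and TFE3 in the cytosol. Released from that control, these factors bind promoters of many lysosomal genes at a sequence built around CACGTG, known as the CLEAR element. Estradiol acts through nuclear estrogen receptors, and in the mammary gland the receptor-positive cells lie in the luminal epithelium.

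Libraries held 23239364 to 28910688 counts in the Torin experiment and 20637765 to 24312389 in the estradiol experiment. One library stood apart: of 11193 genes that averaged 5 CPM or more (CPM are counts scaled to normalized library size), the third Torin D6 library exceeded every other Torin-experiment library more than 4-fold at 225 genes, and none of the other 11 libraries did so at any gene. Lamp1 was the only lysosomal member among those 225 genes. All 7 epithelial markers were detected in every library. Of 14 macrophage markers measured in the Torin experiment, 12 were under 1 CPM in every library and 5 (Adgre1, C1qa, C1qb, C1qc and Tyrobp) had no count in any. Of 13 measured in the estradiol experiment, 10 were under 1 CPM in every library. In organoids, a change in RNA per cell and a change in the number of cells of a type cannot be told apart.

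Most members were well expressed. Levels between genes were compared as CPM per kilobase, with the mean length of each gene's protein-coding transcripts in GENCODE M21. The transcript lengths the authors used were not given in the sources used here. Cathepsin D (Ctsd), the main lysosomal aspartic protease, stood highest in Torin D6 libraries, at a median of 1297 CPM per kilobase, against 728 CPM per kilobase in DMSO D6 libraries. The tetraspanin Cd63 followed in Torin D6 libraries at 922 CPM per kilobase, against 949.8 CPM per kilobase in DMSO D6 libraries, where it ranked first. Prosaposin (Psap), the precursor of the saposins that help degrade sphingolipids, had 412 CPM per kilobase in Torin D6 and 690.2 CPM per kilobase in DMSO D6 libraries. In DMSO D6 libraries the ranges of Ctsd and Psap, 702 to 785 and 633 to 742 CPM per kilobase, overlapped. Within each of these libraries, however, Ctsd lay above Psap. In the estradiol experiment Ctsd also ranked first, at 957 CPM per kilobase in estradiol libraries and 833 CPM per kilobase in ethanol libraries. At the other end were cathepsin S (Ctss), a protease known from antigen-presenting cells, and Atp6v0d2, a pump subunit known from osteoclasts.

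Ctss had 0, 1 and 0 counts in Torin D6 libraries, against 8, 1 and 4 in DMSO D6 libraries. It had no count in the 3 Torin D12 libraries, against 17, 7 and 14 counts in DMSO D12 libraries. In the estradiol experiment it had 10, 12 and 6 counts in estradiol libraries, against 8, 7 and 3 in ethanol libraries. It did not pass the filter on low counts in either experiment, and Atp6v0d2 did not pass it in the estradiol experiment, so 49 and 48 members were tested.

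Promoter windows of 250 bases before to 50 bases after the start of transcription were read from RefSeq (mouse build GRCm38.p6) for 40 of the 50 members, 44 windows in all. No window was read for Ctsb, Ctsh, Asah1, Npc1, Laptm4b, Atp6v0d2, Atp6v1b2, Atp6v1c1, Atp6v1g1 and Atp6v1h. CACGTG, which reads the same on both strands, lay in a window of 14 of the 40 members (35%), against 8.09% of the 27025 genes with a window. The longer palindrome TCACGTGA, each match of which is also a match to CACGTG, lay in windows of 6 members (15%): Ctsa, Ctsd, Gla, Mcoln1, Atp6v0d1 and Atp6v1a. It lay in 1.12% of all genes with a window. The 10-base palindrome of the CLEAR element, which extends TCACGTGA by a base on each side, was in no member's window and in 0.37% of all genes. By role, CACGTG was in windows of 9 of 25 hydrolases and lumenal proteins, 2 of 6 membrane proteins and 3 of 9 V-ATPase subunits. A match is a description of letters and not of binding.

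The 5 windows below were chosen after the values were seen, to set members that rose beside members that fell. Of them 3 belong to members that rose with Torin in D6 (Ctsd, Mcoln1 and Lamp1). The fourth belongs to Atp6v1a, which holds TCACGTGA and fell with Torin in D12. The last belongs to Lipa, which fell most in both arms and holds no match. Each runs 5′ to 3′ on the strand of its gene, and capitals mark CACGTG. The 3 windows of members that rose all hold it, so they do not represent all members that rose. Gusb and Atp6v0a1, which rose in both arms, hold no match and are not shown.
Ctsd, chr7:142387778-142388077, minus strand: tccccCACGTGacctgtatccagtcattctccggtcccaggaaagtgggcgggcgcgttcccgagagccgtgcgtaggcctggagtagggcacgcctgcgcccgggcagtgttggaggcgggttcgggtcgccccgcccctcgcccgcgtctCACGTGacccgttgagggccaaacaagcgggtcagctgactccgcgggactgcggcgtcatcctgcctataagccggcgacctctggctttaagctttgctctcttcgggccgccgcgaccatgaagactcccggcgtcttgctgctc
Mcoln1, chr8:3500269-3500568, plus strand: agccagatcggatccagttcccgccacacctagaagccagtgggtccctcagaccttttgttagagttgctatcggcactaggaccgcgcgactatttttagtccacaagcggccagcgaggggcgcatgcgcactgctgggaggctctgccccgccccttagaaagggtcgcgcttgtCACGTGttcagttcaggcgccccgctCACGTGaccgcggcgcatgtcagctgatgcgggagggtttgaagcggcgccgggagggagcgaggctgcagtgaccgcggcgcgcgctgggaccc
Lamp1, chr8:13158911-13159210, plus strand: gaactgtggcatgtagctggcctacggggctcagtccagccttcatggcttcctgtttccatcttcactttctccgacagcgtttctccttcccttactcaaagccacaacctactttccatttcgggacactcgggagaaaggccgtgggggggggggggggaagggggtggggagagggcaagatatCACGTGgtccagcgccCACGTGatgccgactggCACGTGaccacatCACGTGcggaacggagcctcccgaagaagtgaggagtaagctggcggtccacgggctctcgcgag
Atp6v1a, chr16:44139210-44139509, minus strand: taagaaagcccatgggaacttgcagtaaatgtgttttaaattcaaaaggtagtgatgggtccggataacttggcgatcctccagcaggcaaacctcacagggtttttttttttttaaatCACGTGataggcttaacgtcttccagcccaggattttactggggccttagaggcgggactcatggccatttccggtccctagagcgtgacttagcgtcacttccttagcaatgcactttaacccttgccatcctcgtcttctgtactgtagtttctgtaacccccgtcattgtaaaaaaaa
Lipa, chr19:34527425-34527724, minus strand: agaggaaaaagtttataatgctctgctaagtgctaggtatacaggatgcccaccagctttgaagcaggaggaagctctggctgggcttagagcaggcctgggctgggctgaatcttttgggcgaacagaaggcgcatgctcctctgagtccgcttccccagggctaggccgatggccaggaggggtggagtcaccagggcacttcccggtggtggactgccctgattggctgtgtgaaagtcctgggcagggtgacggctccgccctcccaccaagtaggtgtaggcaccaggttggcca

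The sequences differ in number and place of the motif. Lamp1 holds 4 copies, the first of them at -61 from the start of transcription and the last at -15. Mcoln1 holds copies at -71 and -45, and Ctsd at -245 and -98. Atp6v1a holds a single copy at -131. Among members with a window, CACGTG was present for 4 of the 9 that rose in D6 (Ctsd, Gla, Lamp1 and Mcoln1) and for 2 of the 7 that fell there (Glb1 and Naglu). It was present for 4 of the 15 that fell in D12 (Ctsa, Ctsl, Glb1 and Atp6v1a) and for neither of the 2 that rose there (Gusb and Atp6v0a1). Of the 15 with a window that passed in neither arm, 5 held it. With so few genes, and 35% of all members with a window holding it, these counts are given as a description only. The D6 calls of Gla, Lamp1, Glb1 and Naglu were lost in some settings, as given below.

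The first comparison asked which lysosomal genes differed in organoids treated with Torin in the D6 arm. Of 49 members tested, 13 rose and 10 fell (edgeR's quasi-likelihood test, Benjamini-Hochberg adjusted p under 0.05 over all genes). Over all 18112 genes tested, 19.8% rose and 19.3% fell, so the share of members that fell was close to the background and the share that rose lay somewhat above it. Their median log2 fold change was 0.03, against 0.05 over all genes. Lack of overlap between Torin and DMSO libraries, given below for single genes, was common and held for 48.5% of all genes tested. The direction differed between genes of the same class: 6 of 27 hydrolases and lumenal proteins rose and 7 fell, 2 of 8 membrane proteins rose and 2 fell, and 5 of 14 V-ATPase subunits rose and 1 fell.

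Of the 6 lipid hydrolases and lumenal cofactors, 1 rose and 2 fell in D6, and their median log2 fold change was 0.02. Lysosomal acid lipase (Lipa), which frees cholesterol and fatty acids from lipoprotein lipids, had 30.7, 29.6 and 30.0 CPM in Torin D6 libraries, against 98.8, 110 and 105 CPM in DMSO D6 libraries. The groups lay far apart, with little spread among the Torin libraries. The log2 fold change was -1.80 ± 0.11 (SE, adjusted p = 2.49e-07), the lowest of all members. Psap had 1099, 1086 and 1050 CPM in Torin D6 libraries, against 1669, 1955 and 1819 CPM in DMSO D6 libraries, without overlap (log2 fold change -0.75 ± 0.085, adjusted p = 3.11e-05). The acid ceramidase Asah1 moved the other way, with 364, 356 and 362 CPM in Torin D6 libraries, against 293, 319.5 and 283 CPM in DMSO D6 libraries (log2 fold change 0.27, adjusted p = 0.00426). Smpd1 (acid sphingomyelinase), Npc2 (a lumenal cholesterol carrier) and Grn (progranulin) did not pass, with log2 fold changes between -0.10 and 0.22.

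Among proteases, cathepsins moved in opposite directions. Ctsd had 2625, 2520 and 2665 CPM in Torin D6 libraries, against 1473, 1589 and 1421 CPM in DMSO D6 libraries. All Torin libraries were higher, and the log2 fold change was 0.80 ± 0.072 (adjusted p = 5.41e-06). Cathepsin B (Ctsb), a cysteine protease, had 1144, 1243 and 1012 CPM in Torin D6 libraries, against 1909, 2075 and 1845 CPM in DMSO D6 libraries. Here all Torin libraries were lower, with a log2 fold change of -0.78 ± 0.089 (adjusted p = 3.33e-05). The aminopeptidase cathepsin H (Ctsh) rose by a log2 fold change of 0.35 and the tripeptidyl peptidase Tpp1 by 0.38. The Tpp1 call was lost without Torin D6 replicate 1 or DMSO D6 replicate 3 (0.34 and 0.36). Cathepsin C (Ctsc), which activates serine proteases of granules, had a log2 fold change of -0.41 and fell. Ctsk, Ctsl, Ctsa, Ctsf and Ctsz did not pass.

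The glycosidases divided in the same way. Gusb (beta-glucuronidase) had 65.9, 60.9 and 71.1 CPM in Torin D6 libraries, against 42.5, 42.4 and 41.4 CPM in DMSO D6 libraries. No Torin library came near the DMSO range, and the log2 fold change was 0.65 ± 0.081 (adjusted p = 6.47e-05). Hexa, the alpha subunit of beta-hexosaminidase, had 66.04, 62.8 and 63.5 CPM in Torin D6 libraries, against 91.5, 98.0 and 90.8 CPM in DMSO D6 libraries. It fell, with a log2 fold change of -0.54 ± 0.067 (adjusted p = 5.88e-05). Gla (alpha-galactosidase A) rose at 0.40, and Glb1 (beta-galactosidase) and Naglu fell at -0.21 and -0.27 on the log2 scale. These 3 calls did not hold when single libraries were left out: Gla was lost without Torin D6 replicate 1 or 2 or DMSO D6 replicate 2 or 3, with log2 values of 0.36 to 0.40. It was also lost with no filter on low counts (0.37, adjusted p = 0.158). With the authors' deposited normalization Gla was smaller and did not pass (0.14 with limma, adjusted p = 0.577, and 0.13 with the authors' factors as offsets, adjusted p = 0.622). Naglu was lost without the same 4 libraries, with values of -0.28 to -0.20. Glb1 was lost without Torin D6 replicate 3 or DMSO D6 replicate 1 or 3, with values of -0.21 to -0.17.

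In the lysosomal membrane, Scarb2 (LIMP-2), the receptor that carries glucocerebrosidase to lysosomes, had 134, 138 and 117 CPM in Torin D6 libraries, against 222, 252 and 242 CPM in DMSO D6 libraries. The groups did not overlap, and the log2 fold change was -0.88 ± 0.079 (adjusted p = 4.93e-06). The calcium channel Mcoln1 had 52.1, 49.7 and 59.8 CPM in Torin D6 libraries, against 41.2, 41.7 and 38.2 CPM in DMSO D6 libraries (log2 fold change 0.42 ± 0.082, adjusted p = 0.00188). The cholesterol exporter Npc1 fell at a log2 fold change of -0.41. Lamp1, an abundant lysosomal membrane glycoprotein whose window is shown above, had 89.9, 109 and 874 CPM in Torin D6 libraries, against 77.5, 77.6 and 68.1 CPM in DMSO D6 libraries. The value of 874 CPM belongs to the library that stood apart. With it the log2 fold change was 2.27 ± 0.67 (adjusted p = 0.0193), and without it 0.41 ± 0.12 (adjusted p = 0.0137). The Lamp1 call with all libraries was also lost without any one of the 3 DMSO D6 libraries (2.20 to 2.30, adjusted p of 0.058 to 0.0664). Cd63, Lamp2, Laptm4a and Laptm4b did not pass.

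The V-ATPase subunits that passed mostly rose. Atp6v1c2, a tissue-restricted form of the C subunit that joins the sectors, had 28.2, 18.6 and 25.3 CPM in Torin D6 libraries, against 9.57, 8.77 and 8.70 CPM in DMSO D6 libraries. Every Torin library was above every DMSO library, with a log2 fold change of 1.41 ± 0.19 (adjusted p = 1.13e-04). The widely expressed form Atp6v1c1 rose less, at a log2 fold change of 0.30. Of all counts of both forms, Atp6v1c2 took 17.4, 11.8 and 17.0% in Torin D6 libraries, against 8.60, 7.15 and 7.64% in DMSO D6 libraries. The exact 95% intervals of these shares, which cover counting error only, ran over 10.9 to 18.5% in Torin D6 and over 6.21 to 9.68% in DMSO D6 libraries.

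Atp6v0a1, a V0 subunit that helps to place the pump, had 68.0, 64.6 and 58.4 CPM in Torin D6 libraries, against 44.5, 36.7 and 40.9 CPM in DMSO D6 libraries (log2 fold change 0.65 ± 0.097, adjusted p = 2.60e-04). With limma on the deposited normalized values it was 0.34 and still passed (adjusted p = 0.0225). Atp6v1b2, the common form of a subunit of the ATP-splitting head, had 291, 342 and 239.7 CPM in Torin D6 libraries, against 166, 192 and 179 CPM in DMSO D6 libraries (0.70 ± 0.14, adjusted p = 0.00202). Atp6v0c, the subunit of the proton-carrying ring, had 355, 347 and 375 CPM in Torin D6 libraries, against 256, 309.7 and 270.5 CPM in DMSO D6 libraries (0.36 ± 0.089, adjusted p = 0.00672). For all 3 subunits the groups did not overlap, as for 48.5% of all genes in D6. Atp6v1g1, a stalk subunit, was the single subunit that fell (-0.23, adjusted p = 0.0129).

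**Figure D1:**
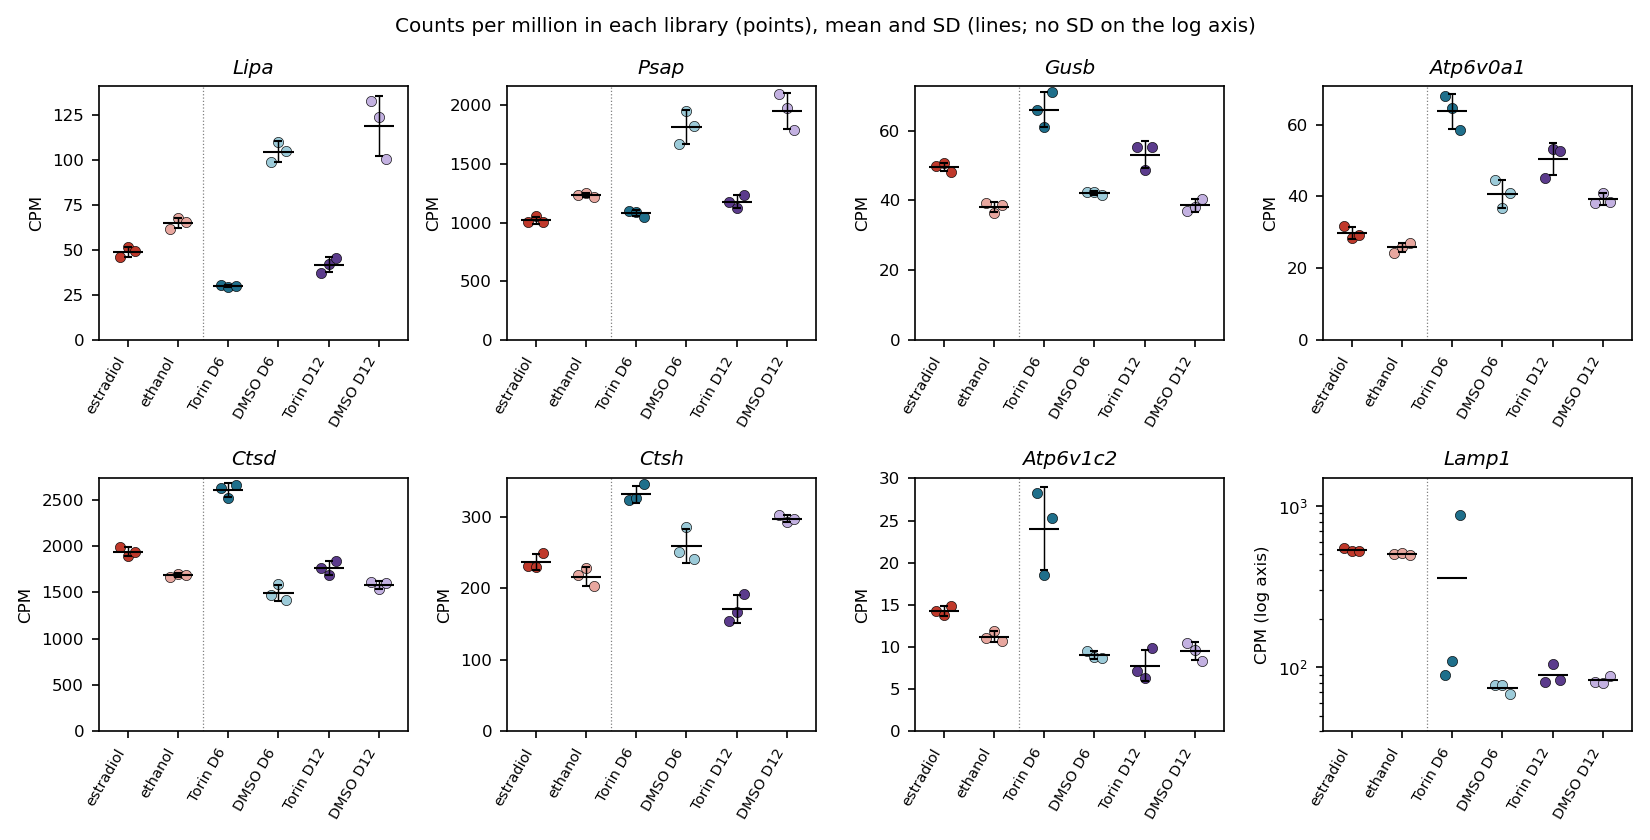
CPM of 8 lysosomal genes in each library (points), with the mean (horizontal line) and SD (error bar) of 3 libraries per group; the vertical axis starts at 0 except for Lamp1, which has a log axis and no SD. Lipa and Psap were lower and Gusb and Atp6v0a1 higher in treated libraries of every pair; for Lamp1, 1 Torin D6 library lay at 874 CPM, against 109 CPM or less in the other 11 libraries of the Torin experiment.

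The same question was asked in the D12 arm, whose DMSO libraries are its own. Here 20 of 49 members fell and 2 rose, against 14.6% and 10.8% of all genes. The share that fell was far above the background and the share that rose below it, and the median log2 fold change of the members was -0.19, against 0.01 over all genes. Of 27 hydrolases and lumenal proteins 14 fell and 1 rose, of 8 membrane proteins 3 fell, and of 14 V-ATPase subunits 3 fell and 1 rose. Groups did not overlap for 43.7% of all genes in this arm. The largest decrease was that of Lipa, as in D6.

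Lipa had 37.3, 42.3 and 45.8 CPM in Torin D12 libraries, against 133, 124 and 100.4 CPM in DMSO D12 libraries. The gap between the groups exceeded the spread within either, with a log2 fold change of -1.51 ± 0.11 (adjusted p = 3.34e-06). Psap had 1176, 1122 and 1237 CPM in Torin D12 libraries, against 2095, 1976 and 1787 CPM in DMSO D12 libraries (-0.73 ± 0.085, adjusted p = 9.17e-05). Of this class, 5 of 6 members fell: Npc2 at -0.55, Grn at -0.48 and Asah1 at -0.31 on the log2 scale, besides Lipa and Psap. Grn was lost without Torin D12 replicate 1 or 2 or DMSO D12 replicate 1, with values of -0.43 to -0.38. Smpd1 did not pass.

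Of 10 proteases tested 4 fell and none rose. Ctsh had 154, 166 and 192 CPM in Torin D12 libraries, against 302, 292 and 297 CPM in DMSO D12 libraries. All Torin libraries were lower, with a log2 fold change of -0.80 ± 0.089 (adjusted p = 6.80e-05). Cathepsin L (Ctsl), a cysteine endopeptidase, had 91.9, 86.9 and 146 CPM in Torin D12 libraries, against 226, 224 and 190.0 CPM in DMSO D12 libraries. The groups did not overlap, although the third Torin library was higher than the others (-0.98 ± 0.23, adjusted p = 0.00853). Ctsb had 1482, 1492 and 1376 CPM in Torin D12 libraries, against 2107, 1941 and 2078 CPM in DMSO D12 libraries (-0.49 ± 0.089, adjusted p = 0.00170). Ctsa, a carboxypeptidase that protects other lysosomal enzymes, fell at -0.50. Ctsd, with 1761, 1694 and 1844 CPM in Torin D12 libraries and 1608, 1533 and 1601 CPM in DMSO D12 libraries, did not pass (0.16 ± 0.072, adjusted p = 0.131).

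Gusb was the glycosidase that rose, with 55.2, 48.7 and 55.4 CPM in Torin D12 libraries, against 37.0, 38.2 and 40.4 CPM in DMSO D12 libraries (0.46 ± 0.081, adjusted p = 0.00142). Hexa had 68.0, 70.9 and 73.8 CPM in Torin D12 libraries, against 100.0, 94.0 and 89.6 CPM in DMSO D12 libraries (-0.42 ± 0.067, adjusted p = 8.36e-04). Neither gene's groups overlapped. Manba (beta-mannosidase, -0.65), Man2b1 (alpha-mannosidase, -0.43), Neu1 (a sialidase, -0.42) and Glb1 (-0.28) also fell. Man2b1 rested on single libraries: it was lost without the third Torin D12 library (-0.28, adjusted p = 0.112) and without Torin D12 replicate 2 or any of the DMSO D12 libraries (-0.48 to -0.39). Neu1 was lost without Torin D12 replicate 1 or 2 or DMSO D12 replicate 1 or 2 (-0.41 to -0.33).

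Of the membrane proteins, Npc1 had 29.4, 28.3 and 24.3 CPM in Torin D12 libraries, against 41.8, 41.8 and 46.1 CPM in DMSO D12 libraries (-0.66 ± 0.10, adjusted p = 5.76e-04). Lamp2, which serves in chaperone-mediated autophagy and in fusion of autophagosomes with lysosomes, had 394, 388 and 463 CPM in Torin D12 libraries, against 605, 598 and 541 CPM in DMSO D12 libraries (-0.49 ± 0.086, adjusted p = 0.00152). Scarb2 fell at -0.41. These 3 genes showed no overlap between groups, while Lamp1, with 81.0, 105 and 83.0 CPM in Torin D12 libraries and 81.3, 79.3 and 88.2 CPM in DMSO D12 libraries, overlapped and did not pass.

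In the pump, Atp6v1a, which carries the catalytic site of the V1 sector and whose window is shown above, had 185, 179.7 and 232 CPM in Torin D12 libraries, against 349.7, 355 and 318 CPM in DMSO D12 libraries. It fell with a log2 fold change of -0.78 ± 0.096 (adjusted p = 1.38e-04), without overlap. Atp6v0a1 had 45.2, 53.3 and 52.6 CPM in Torin D12 libraries, against 38.2, 41.0 and 38.5 CPM in DMSO D12 libraries, and rose (0.36 ± 0.096, adjusted p = 0.0173). That call was lost without Torin D12 replicate 2 or DMSO D12 replicate 1 or 3, with values of 0.32 to 0.34. Atp6v0c (255, 232 and 281 CPM in Torin D12 libraries, against 323, 302 and 303 CPM in DMSO D12 libraries) and Atp6v1g1 (391.7, 412 and 399.7 CPM, against 458, 460.5 and 449.5 CPM) fell at -0.27 and -0.19. Both calls were close to the threshold. Atp6v0c was lost without Torin D12 replicate 1 or 2 or any DMSO D12 library (-0.29 to -0.21), and Atp6v1g1 without any single library of either group (-0.21 to -0.17).

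**Figure D2:**
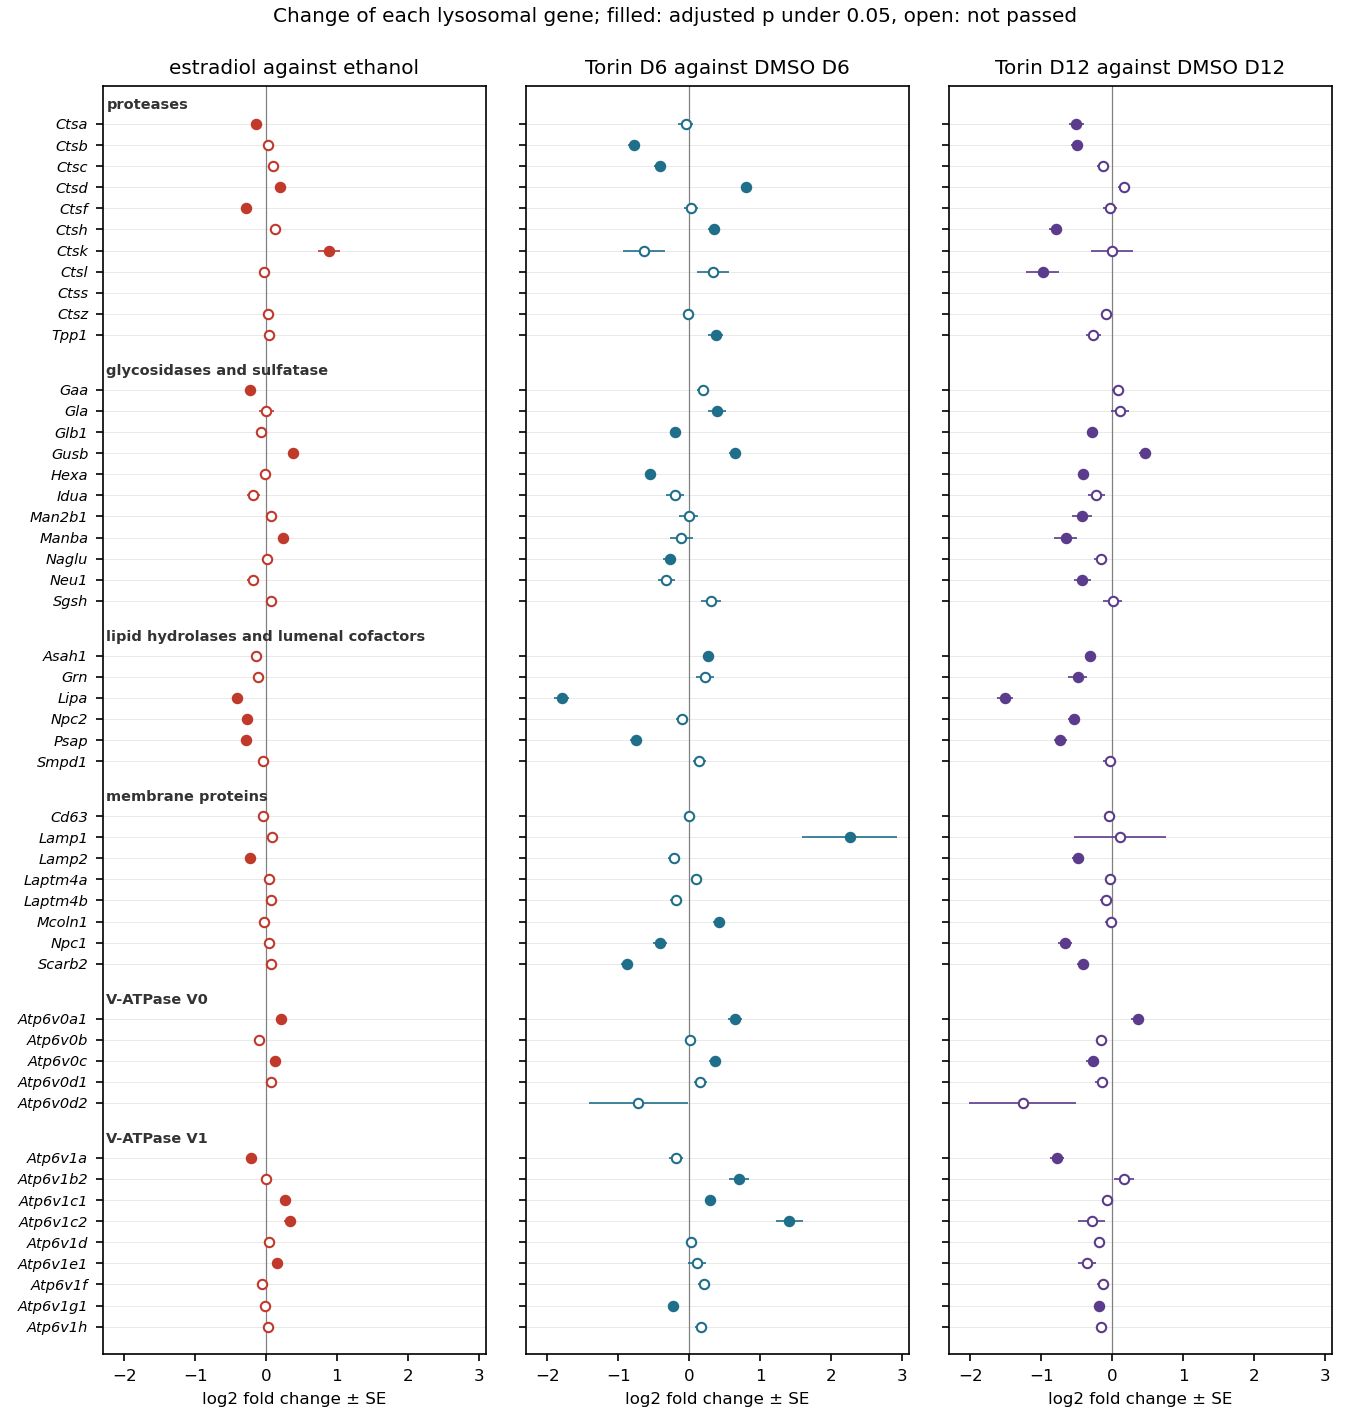
Log2 fold change with its SE for every lysosomal gene tested, ordered by class, for estradiol against ethanol (left), Torin D6 against DMSO D6 (middle) and Torin D12 against DMSO D12 (right); filled points passed an adjusted p of 0.05 and open points did not. Filled points lie on both sides of 0 in the left and middle panels, and in the right panel 20 lie below 0 and 2 above.

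The arms were then compared member by member. Both calls agreed in direction for 10 members: 8 fell in both (Ctsb, Glb1, Hexa, Lipa, Psap, Npc1, Scarb2 and Atp6v1g1), against 10.0% of all genes, and 2 rose in both (Gusb and Atp6v0a1), against 7.04% of all genes. The calls were opposite for 3 members (Ctsh, Asah1 and Atp6v0c), all of which rose in D6 and fell in D12, against 0.955% of all genes with opposite calls. A further 8 members rose in D6 and did not pass in D12, 9 fell in D12 and did not pass in D6, 2 fell in D6 and did not pass in D12, and 18 passed in neither or were not tested. The shares of all genes with a call in a single arm were not counted, so these numbers are a description only.

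The difference between the Torin effects (the effect in D12 minus that in D6) was tested directly as an interaction. It was negative and passed for 12 members and positive for 1, against 5.55% and 5.03% of all genes. The median of this difference over the members was -0.29, against -0.03 over all genes. The sign was negative for 39 of 49 members, and the share of all genes with a negative sign was not counted. The DMSO groups, whose levels enter this difference, are compared below. The largest negative difference that passed was that of Atp6v1c2, at -1.71 ± 0.27 (adjusted p = 0.00184). Its level in D12 was 7.15, 6.37 and 9.83 CPM in Torin libraries, against 10.5, 9.70 and 8.39 CPM in DMSO libraries, so the groups overlapped there (log2 fold change -0.29, adjusted p = 0.304). Its share of the counts of both C-subunit genes was 6.69, 6.07 and 8.58% in Torin D12 libraries, against 8.85, 8.07 and 7.72% in DMSO D12 libraries.

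Among the proteases the difference was -1.32 ± 0.32 for Ctsl (adjusted p = 0.0235), -1.15 ± 0.13 for Ctsh (1.65e-04) and -0.64 ± 0.10 for Ctsd (0.00203). In the D6 arm Ctsl had 198, 163 and 298 CPM in Torin libraries, against 178, 194 and 148 CPM in DMSO libraries, so its groups overlapped there, and the highest value was again in the third Torin D6 library. The Ctsl difference was lost without Torin D12 replicate 1 or 2, DMSO D6 replicate 1 or 3, or DMSO D12 replicate 1 or 2 (-1.34 to -1.19), while without the third Torin D6 library it still passed. Scarb2 gave the positive difference, 0.46 ± 0.11 (adjusted p = 0.0202), since its decrease was smaller in D12 than in D6. That call was lost without Torin D12 replicate 2, DMSO D6 replicate 2 or 3, or DMSO D12 replicate 3 (0.42 to 0.46).

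The count of 12 negative differences depended on single libraries more than the counts within each arm. It was 5 without DMSO D6 replicate 3 or without Torin D12 replicate 1, 6 without DMSO D12 replicate 1, and 7 without Torin D6 replicate 1, DMSO D6 replicate 1, Torin D12 replicate 2 or DMSO D12 replicate 2. It was 16 without the third Torin D12 library. The number of all genes whose difference passed moved as well, from 1917 with all libraries. It was 1219 without DMSO D6 replicate 3, 1362 without Torin D12 replicate 1 and 2307 without the third Torin D12 library. The differences of Ctsd, Ctsh, Asah1, Atp6v0c and Atp6v1c2 passed in every setting tried.

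The DMSO groups of the arms differed little at single members. In DMSO D12 against DMSO D6, no member rose and none fell (edgeR), against 0% and 0.00552% of all genes. At an unadjusted p under 0.05 there was 1 member (Ctsh, log2 difference 0.20), and DESeq2 called no member and 13 genes in all. The median difference over the members was 0.07, against 0.01 over all genes. It was positive for 38 of 49 members and negative for 11, and positive for all 6 lipid hydrolases and lumenal cofactors. The share of all genes with a positive difference between the DMSO groups was not counted. These DMSO levels enter the difference between the Torin effects, and their part in it was not tested.

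**Figure D3:**
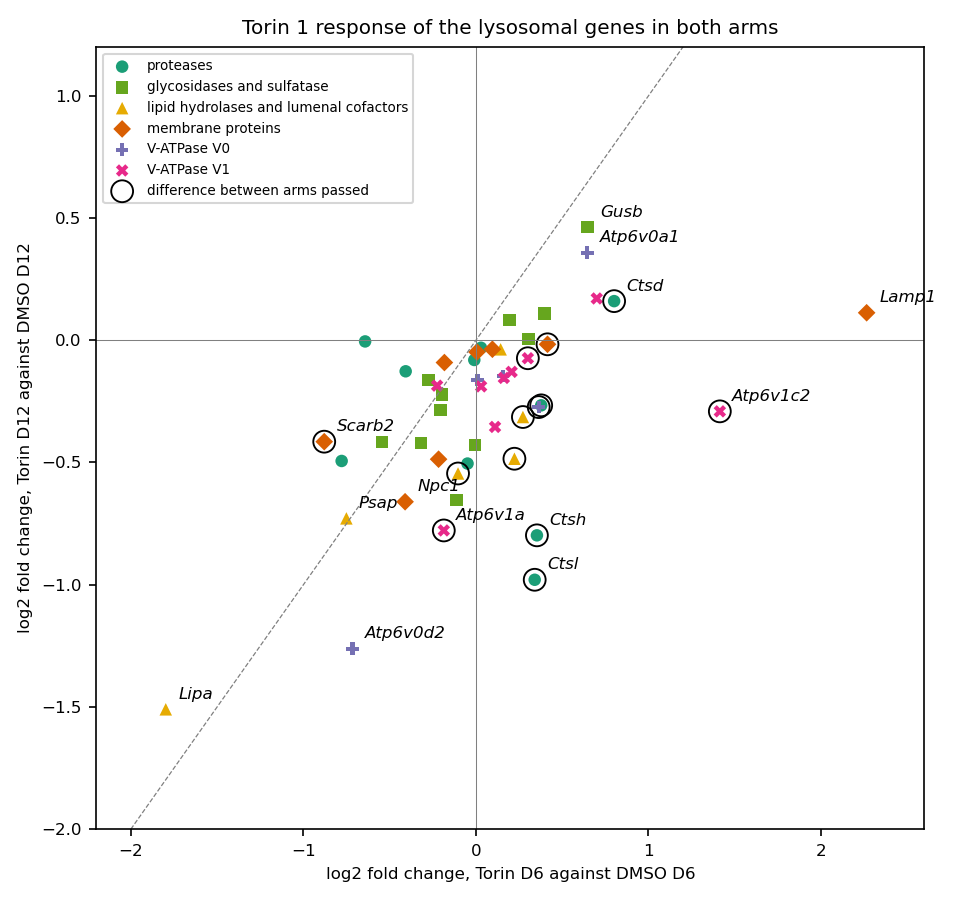
Log2 fold change with Torin in D6 (horizontal) and D12 (vertical) for the 49 lysosomal genes tested, by class; the dashed line marks equal values, and circles mark genes whose difference between arms passed. Most points lie below the line; Lipa lies near it at the lower left, Atp6v1c2, Ctsh and Ctsl lie far below it, and Scarb2 lies above it.

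Levels were also summed over each class. The 6 lipid hydrolases and cofactors summed to 2083 to 2147 CPM in Torin D6 libraries, against 2697 to 3063 CPM in DMSO D6 libraries, and to 1892 to 2092 CPM in Torin D12 libraries, against 2856 to 3292 CPM in DMSO D12 libraries. Psap was the largest single contributor to these sums. In D6 the lower sum does not describe the class as a whole. There 3 of its members had a positive and 3 a negative log2 fold change, with a median of 0.02. In D12 all 6 were negative. The 5 V0 subunits summed to 756 to 765.5 CPM in Torin D6 libraries, against 618.5 to 694 CPM in DMSO D6 libraries, and to 587 to 648 CPM in Torin D12 libraries, against 677 to 716.5 CPM in DMSO D12 libraries. The V0 sum was thus above the DMSO range in one arm and below it in the other. The 9 V1 subunits overlapped in D6, at 1706 to 1750 CPM with Torin, against 1575 to 1721 CPM with DMSO. In D12 they did not, at 1394 to 1463 CPM with Torin, against 1644 to 1718 CPM with DMSO.

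**Figure D4:**
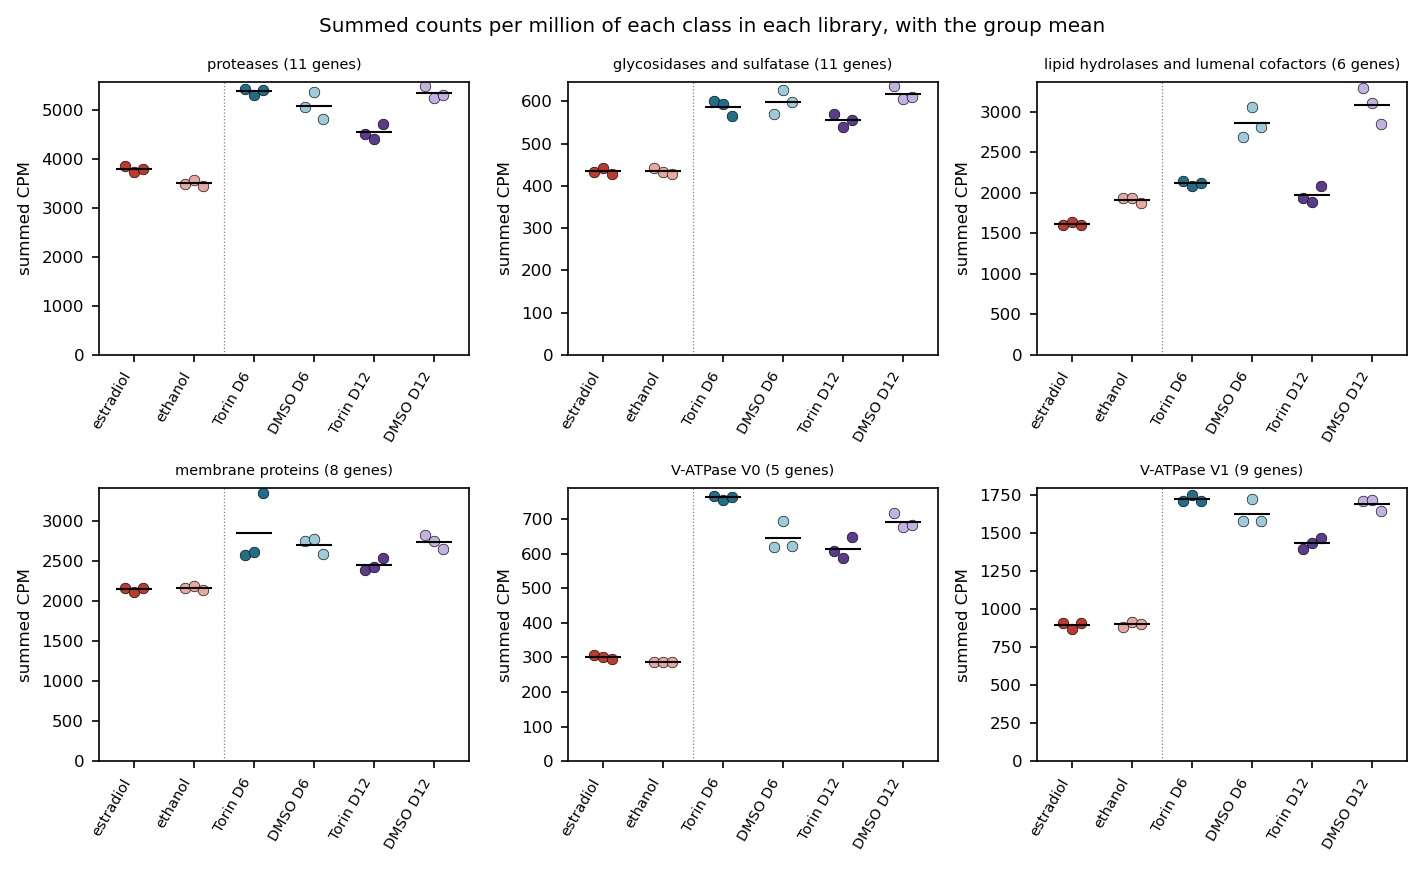
CPM summed over the members of each class in each library (points), with the group mean (line); all vertical axes start at 0. The sum of the lipid hydrolases and cofactors, to which Psap contributes most, is lower with Torin in both arms. The V0 sum lies above DMSO in D6 and below it in D12. The high point among the membrane proteins is the third Torin D6 library, with 874 CPM of Lamp1.

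The last comparison asked what estradiol did to the same genes. Of 48 members tested 9 rose and 8 fell, against 17.4% and 16.6% of all 15358 genes, and the median log2 fold change was 0.01 for the members and -0.01 for all genes. Estradiol and ethanol libraries did not overlap for 46.4% of all genes. No member reached a log2 fold change of 1 in size. Of 27 hydrolases and lumenal proteins 4 rose and 6 fell, of 8 membrane proteins none rose and 1 fell, and of 13 V-ATPase subunits 5 rose and 1 fell.

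Lipa again showed the largest decrease, with 45.9, 51.6 and 49.3 CPM in estradiol libraries, against 61.8, 67.9 and 65.4 CPM in ethanol libraries (log2 fold change -0.41 ± 0.054, adjusted p = 3.56e-05). Psap had 1004, 1055 and 1001 CPM in estradiol libraries, against 1235, 1253 and 1221 CPM in ethanol libraries (-0.28 ± 0.036, adjusted p = 3.05e-05). For both genes all estradiol libraries were lower. Npc2 fell at -0.27, and all 6 members of this class had negative values. Lipa and Psap were the members that fell in all 3 treatment comparisons, and the share of all genes that did so was not counted.

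Ctsk, a collagen-degrading cathepsin, rose most, with 8.86, 6.23 and 7.38 CPM in estradiol libraries, against 3.77, 4.58 and 3.74 CPM in ethanol libraries (0.89 ± 0.15, adjusted p = 4.17e-04). The groups did not overlap, at a low level. Of the fibroblast markers, among which collagen genes count, 6 of 10 rose and 2 fell in the same comparison, including Col1a2 at 0.66 and Col1a1 at 0.61. Their summed level, however, was 1574 to 1717 CPM in estradiol libraries, against 1702 to 1929 CPM in ethanol libraries, and no fibroblast marker was at 0. Their part in the Ctsk result was not tested. Ctsd had 1994, 1892 and 1937 CPM in estradiol libraries, against 1664, 1704 and 1687 CPM in ethanol libraries (0.20 ± 0.034, adjusted p = 3.23e-04). Ctsf fell at -0.28 and Ctsa at -0.15. The Ctsa call was lost without estradiol replicate 1 or 3 or ethanol replicate 1 or 2 (-0.15 to -0.11).

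Gusb had 49.7, 50.7 and 48.2 CPM in estradiol libraries, against 39.1, 36.4 and 38.7 CPM in ethanol libraries, and rose (0.38 ± 0.051, adjusted p = 4.19e-05). Manba had 43.4, 43.2 and 40.2 CPM in estradiol libraries, against 36.4, 35.3 and 35.1 CPM in ethanol libraries (0.25 ± 0.053, adjusted p = 0.00229). Both were above the ethanol range in every estradiol library. Gaa, the glycogen-degrading alpha-glucosidase, fell at -0.22.

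Lamp2 was the membrane protein that passed, with 395, 371 and 375 CPM in estradiol libraries, against 457, 448 and 431 CPM in ethanol libraries (-0.23 ± 0.041, adjusted p = 5.53e-04). Lamp1, at 548, 522 and 528 CPM in estradiol libraries and 503, 507.5 and 494.7 CPM in ethanol libraries, did not pass (0.09 ± 0.037, adjusted p = 0.0871), although its groups did not overlap. In the separately normalized Torin experiment Lamp1 was between 68.1 and 109 CPM outside the library that stood apart.

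Among pump subunits, Atp6v1c1 had 46.2, 43.1 and 46.0 CPM in estradiol libraries, against 34.1, 38.0 and 40.3 CPM in ethanol libraries (0.27 ± 0.062, adjusted p = 0.00394). With limma on the deposited normalized values it was 0.16 and did not pass (adjusted p = 0.202). Atp6v1c2 rose at 0.34, and its share of the counts of both C-subunit genes overlapped between groups, at 23.5 to 24.4% in estradiol and 21.0 to 24.5% in ethanol libraries. Atp6v1a had 220, 219.7 and 209 CPM in estradiol libraries, against 248, 258 and 244 CPM in ethanol libraries, and fell (-0.21 ± 0.041, adjusted p = 0.00116). Atp6v1e1 rose at 0.16. Atp6v0a1 (31.7, 28.3 and 29.3 CPM in estradiol libraries, against 24.3, 25.96 and 27.0 CPM in ethanol libraries) and Atp6v0c (144, 139 and 134 CPM, against 130.2, 123 and 127 CPM) rose at 0.21 and 0.13 without overlap. Atp6v0a1 was lost without estradiol replicate 1 or ethanol replicate 1 (0.16 and 0.17), with DESeq2 (0.22, adjusted p = 0.0739) and with limma on the deposited normalized values (0.11, adjusted p = 0.574). The call of Atp6v0c was lost without estradiol replicate 1 or 2 or ethanol replicate 2 or 3 (0.11 to 0.14). It was also lost with a replicate block, with limma on the deposited normalized values and with the authors' factors as offsets.

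Across the experiments, which share no libraries, Gusb rose and Lipa and Psap fell in all 3 treatment comparisons under every setting tried. Atp6v0a1 also rose in all 3 in the fits given here, but its estradiol and D12 calls were lost in the settings named above. Whether the effects of estradiol and Torin differed at these genes was not tested, since the experiments were fitted separately. The share of all genes called in the same direction in all 3 comparisons was not counted, so this agreement is a description only. Of the members that rose with estradiol, Manba and Atp6v0c fell in D12. Atp6v0c had risen in D6. Manba had 18.8, 18.0 and 17.7 CPM in Torin D12 libraries, against 30.7, 26.4 and 28.5 CPM in DMSO D12 libraries.

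The counts of the further lists below stand against 19.8% of all genes that rose and 19.3% that fell in D6, 10.8% and 14.6% in D12, and 17.4% and 16.6% with estradiol. Beyond the members, 11 other V-ATPase subunits and assembly factors were listed, of which 9 were tested. In D6 5 rose and 2 fell, in D12 2 rose and 2 fell, and with estradiol 2 rose and 2 fell. The subunits that fell were the same in each comparison, Atp6v1b1 and Atp6v0a4, the forms known from acid-secreting cells of the kidney. Atp6v1b1 had 48.9, 53.3 and 53.0 CPM in Torin D6 libraries, against 401, 473 and 527 CPM in DMSO D6 libraries (-3.17 ± 0.12, adjusted p = 6.60e-09). Its D12 values were 174, 157 and 181 CPM in Torin libraries, against 521, 527 and 434 CPM in DMSO libraries (-1.535 ± 0.11, adjusted p = 3.47e-06). The log2 fold change of Atp6v0a4 was -2.52 in D6, -2.255 in D12 and -0.55 with estradiol. These decreases stand beside the rise of the common head subunit Atp6v1b2 in D6 (0.70) and of Atp6v0a1 in both arms. Atp6v1b2 did not pass in D12 (0.17) or with estradiol (0.005), where Atp6v1b1 fell too. The D12 call of Atp6v0a1 was lost without some single libraries, as given above.

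Of 26 other lysosomal hydrolases measured, 4 rose and 14 fell in D6, 1 rose and 16 fell in D12, and none rose and 12 fell with estradiol. Their median log2 fold changes were -0.51, -0.44 and -0.16. The asparaginyl endopeptidase Lgmn fell in all 3, with log2 fold changes of -1.54 in D6, -1.56 in D12 and -0.55 with estradiol. The GM2 activator Gm2a, a lipid-presenting cofactor like the saposins, had 111, 121 and 103 CPM in Torin D6 libraries, against 349, 452.5 and 386 CPM in DMSO D6 libraries (-1.82 ± 0.12, adjusted p = 4.99e-07). Its groups lay apart, and it also fell with estradiol (-0.74). Scpep1, a carboxypeptidase, fell at -0.71 in D12.

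Of 20 other lysosomal membrane proteins, 18 were tested in the Torin experiment and 16 in the estradiol experiment. In D6 4 rose and 1 fell, in D12 1 rose and 2 fell, and with estradiol 3 rose and 1 fell. The shares that rose in D6 and with estradiol were near those of all genes. The cystine exporter Ctns rose in all 3, with 82.8, 91.9 and 91.1 CPM in Torin D6 libraries, against 35.0, 28.6 and 27.5 CPM in DMSO D6 libraries (1.54 ± 0.11, adjusted p = 9.40e-07). It had 44.9, 45.6 and 39.4 CPM in estradiol libraries, against 19.0, 16.3 and 17.1 CPM in ethanol libraries (1.31 ± 0.074, adjusted p = 6.39e-09). In each case the treated libraries were all above the highest control library. The chloride-proton exchanger Clcn7 rose with estradiol (0.38). Cd68, which is also a macrophage marker, had 1.12, 1.62 and 1.18 CPM in Torin D6 libraries, against 5.33, 10.7 and 6.10 CPM in DMSO D6 libraries (-2.50 ± 0.29, adjusted p = 3.44e-05). Of 5 macrophage markers tested in the Torin experiment, Cd68 included, 1 rose and 2 fell in D6 and 1 fell in D12, and of the 4 tested with estradiol 2 rose and 1 fell. Ptprc rose in D6 (1.63, adjusted p = 0.0175) on 7, 11 and 16 counts in Torin D6 libraries, against 3, 3 and 4 counts in DMSO D6 libraries. Lyz2 rose with estradiol (1.74, adjusted p = 0.0106) on 32, 16 and 11 counts in estradiol libraries, against 5, 8 and 5 counts in ethanol libraries.

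Of 9 genes for sorting and maturation of lysosomal enzymes, 4 rose and none fell in D6, 2 rose and none fell in D12, and none rose and 1 fell with estradiol. Gnptab and Nagpa, which make and finish the mannose 6-phosphate tag of lysosomal enzymes, rose in both arms, at 0.67 and 0.50 in D6 and at 0.84 and 0.40 in D12. Cln6 fell with estradiol (-0.32), where Sumf1, at 0.14, did not pass.

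Of the 9 listed regulators of lysosome biogenesis 8 were tested. Tfeb RNA did not pass in any treatment comparison. It had 9.87, 11.5 and 26.7 CPM in Torin D6 libraries, against 13.7, 14.4 and 12.8 CPM in DMSO D6 libraries, and the value of 26.7 CPM is again that of the third Torin D6 library. Tfe3 rose with estradiol, with 47.6, 51.0 and 49.6 CPM in estradiol libraries, against 41.8, 42.3 and 43.8 CPM in ethanol libraries (0.21 ± 0.049, adjusted p = 0.00396). With Torin it did not pass, at 0.25 in both arms (adjusted p of 0.0864 and 0.111). Mitf had 5.43, 5.15 and 3.95 CPM in Torin D6 libraries, against 14.7, 9.98 and 8.99 CPM in DMSO D6 libraries, and fell (-1.21 ± 0.20, adjusted p = 6.22e-04). Fnip1, a partner of folliculin, fell with estradiol (-0.31), where Flcn itself did not pass (-0.01).

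Markers of cell types moved in the same libraries. The basal keratin Krt5 fell in D6 (-3.19) and in D12 (-1.13), while the luminal keratin Krt18 rose in D6 (0.73). In all, 3 of 7 epithelial markers rose and 2 fell in D6, 5 fell in D12, and 3 rose and 2 fell with estradiol. Their summed level was 8339 to 10190 CPM in Torin D6 libraries, against 6869 to 8181 CPM in DMSO D6 libraries, and 5340 to 6971 CPM in Torin D12 libraries, against 8671 to 9022 CPM in DMSO D12 libraries. With estradiol it was 12280 to 12820 CPM, against 11990 to 12540 CPM with ethanol.

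Of 10 fibroblast markers 8 fell and none rose in D6, at a summed 1055 to 1486 CPM in Torin D6 libraries, against 1764 to 2111 CPM in DMSO D6 libraries. In D12 1 rose and 2 fell, at a summed 1552 to 2213 CPM in Torin libraries, against 1840 to 1975 CPM in DMSO libraries. The summed macrophage markers were nearly all Cd14, at 2163 to 2351 CPM in Torin D6 libraries, against 2347 to 2858 CPM in DMSO D6 libraries. The part of these shifts in the lysosomal results was not tested.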

How the data were processed

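Estimated counts per gene (estradiol experiment, not all whole) and whole-number counts per gene (Torin experiment) were used as deposited by the authors. A normalized signal deposited by the authors (counts divided by factors that differ between genes) entered alternatives only. Per the submitters' processing notes, the tools were kallisto, DESeq2, cutadapt, Trim Galore, MultiQC and FastQC, with build GRCm39 and no versions. How reads shared between near-identical genes were assigned is not given in the sources used here.

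Estimated counts, 32.2% of them not whole, were rounded. Each experiment was fitted separately over all genes that passed edgeR's filter on low counts, with TMM scaling and edgeR's quasi-likelihood test (R 4.3.3, edgeR 4.0.16), and p-values were adjusted by Benjamini-Hochberg over all genes tested. CPM are counts per scaled library. The 12 Torin libraries shared 1 model, and the arms were compared by an interaction. The biological coefficient of variation was 20.2% for Torin libraries and 5.27% for estradiol libraries with their ethanol controls. Alternatives were RLE scaling, DESeq2 1.42.0, other filters, limma 3.58.1 on deposited values with a pseudocount of 1, a replicate block, single libraries left out, fits of the 2 groups alone and, chosen after seeing the data, the authors' factors as offsets and replicate 3 of both Torin groups left out. Fits were tested on simulated data.

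Members and lists were chosen with earlier results of these data known. Values per library were given for members that passed with a log2 change of at least 1 in size and for the 2 of lowest p in each class and treatment comparison; some further members were chosen after their values were seen. Same-numbered libraries showed no shared deviation, and whether replicate numbers pair the samples is not stated. More Torin samples that the series text counts were not analysed here.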

Additional observations from a re-analysis of the deposited data

Results flagged for a closer look

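For 13 members the effect of Torin differed between the arms by the interaction test, given here as the log2 effect in D12 minus that in D6. The difference was -1.71 for Atp6v1c2, -1.15 for Ctsh, -0.64 for Ctsd, -0.64 for Atp6v0c and -0.59 for Asah1, and these 5 passed in every setting tried. It was -1.32 for Ctsl, -0.71 for Grn, -0.64 for Tpp1, -0.59 for Atp6v1a, -0.44 for Npc2, -0.43 for Mcoln1 and -0.37 for Atp6v1c1, and 0.46 for Scarb2. These 8 calls were lost when single libraries were left out: Mcoln1 without any of 10 single libraries, Atp6v1c1 without any of 8, Npc2 and Grn without any of 7, Ctsl without any of 6, Tpp1 and Scarb2 without any of 4, and Atp6v1a without either of 2. Between the arms, length of treatment, its start and batch cannot be told apart. In the same libraries some epithelial and fibroblast markers also differed between arms. Of 10 fibroblast markers 7 had a positive difference that passed, against 5.03% of all genes. The part of these markers in the differences of the members was not tested.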

How the results depend on the processing

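No member's called direction reversed under any alternative. With single libraries left out, the counts of members that rose and fell ranged over 7 to 9 and 7 to 9 with estradiol, 10 to 15 and 8 to 11 with Torin in D6, and 1 to 2 and 15 to 21 with Torin in D12. The difference between arms gave 0 to 1 positive and 5 to 16 negative calls, and DMSO D12 against DMSO D6 gave 0 to 0 in both directions. The count of 1 in D12 came without Torin D12 replicate 2 or DMSO D12 replicate 1 or 3. The positive difference was lost without Torin D12 replicate 2, DMSO D6 replicate 2 or 3 or DMSO D12 replicate 3. With single libraries left out, calls over all genes ranged over 4191 to 4828 with estradiol and 5595 to 7087 in D6. They ranged over 3261 to 4634 in D12 and 1219 to 2307 between arms. Of the calls, 11 of 17 with estradiol, 18 of 23 in D6, 16 of 22 in D12 and 5 of 13 between arms held in every setting. Without replicate 3 of both Torin groups, 15 rose and 15 fell in D6, 3 rose and 22 fell in D12, and 1 positive and 16 negative differences passed. Calls over all genes also grew in that setting, from 7088 to 7649 in D6 and from 4592 to 6581 in D12. Between arms they grew from 1917 to 3308. With limma on the deposited values, 6 rose and 6 fell with estradiol; edgeR with the authors' factors as offsets gave the same counts, and Gaa, Atp6v1a and Atp6v1c1 were lost in these settings alone, both of which use the authors' gene-by-library factors. Over all genes, 3575 passed with estradiol in the limma fit and 3653 with the authors' factors, against 5220 in the main fit. Lamp1 with estradiol passed with DESeq2 (0.10, adjusted p = 0.0203).

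With the replicate number as a block, 8 members rose and 9 fell with estradiol, 12 and 9 in D6, 2 and 18 in D12, and 1 positive and 9 negative differences passed. Over all genes, 4756 passed in that setting with estradiol, 6494 in D6, 4208 in D12 and 1513 between arms. Correlations of same-numbered libraries ran over -0.0461 to -0.0204 in the estradiol experiment, -0.0470 to 0.0615 in D6 and -0.184 to -0.0556 in D12. No shared deviation of same-numbered libraries was thus seen, but whether the numbers pair the samples is not stated. Ctss and, with estradiol, Atp6v0d2 had too few counts to be tested.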
